A study of Mus musculus with 6 samples.

Results

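The genes described here are 9 ATP-buffering enzymes, the adenylate kinases Ak1, Ak3, Ak4, Ak5, Ak6, Ak7, Ak8 and Ak9 and the brain creatine kinase Ckb, taken by gene name from the 47643 genes in each deposited file. All 9 were listed in all 6 libraries. The RNA came from ependymal cells, the ciliated lining of the brain ventricles, of adult mice. The cells were sorted for GFP from the ventricular-subventricular zone 2 days after tamoxifen, and there were 3 samples of a Ccn1 conditional knockout (cKO) and 3 of the control. Tamoxifen induced the recombination that gave GFP and, in the cKO, the loss of Ccn1, which encodes a secreted matrix-associated protein. The labels describe the RNA as cytoplasmic. The Cre driver, the alleles of the control mice, the strain and the age are not stated in the sources used here. Nothing in them says whether the 3 samples of a group came from separate animals, so p-values measure the spread between these samples, which may be technical.

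Cells that beat cilia spend ATP along the axoneme, far from the mitochondria in the cell body. Adenylate kinases move phosphate between adenine nucleotides, making ATP and AMP from a pair of ADP molecules, and creatine kinases move it between creatine and ATP, so that both buffer ATP and pass it along the cell. Ak7 and Ak8 are linked to motile cilia, and mice that lack either gene develop hydrocephalus, the build-up of fluid that follows failure of ependymal cilia. Ak1 and Ak5 are cytosolic, Ak3 and Ak4 lie in the mitochondrial matrix, Ak6 is mainly nuclear, and Ak9 is a large protein with several kinase domains.

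The files gave the libraries 13401417 to 15689497 estimated counts each after rounding. Ccn1 (listed as Cyr61) stood at 18.7, 11.6 and 23.7 TPM (the level per transcript length, summing to 1000000 in a library) in the cKO libraries, against 63.6, 98.7 and 93.5 TPM in the controls, so each library went with its label. Its log2 difference was -2.22 ± 0.38 (SE), with an adjusted p of 0.99999 by edgeR, the test used below, and of 2.27e-06 by DESeq2, so that even the deleted gene did not pass the adjusted edgeR threshold. Ependymal markers summed to 23488 to 24375 TPM in the cKO and 23086 to 27995 TPM in the control, led by Rarres2. Markers of other cells were at or near 0 for endothelium (4 of 5 genes at 0 in every library) and low for neurons (1.71 to 7.32 TPM in the cKO, 0 to 19.0 TPM in the control, with Rbfox3 at 0 throughout), microglia (6.48 to 28.3 and 6.86 to 27.8 TPM) and neuroblasts (7.07 to 8.77 and 8.50 to 13.9 TPM). Astrocyte markers summed to 913 to 982 TPM in the cKO and 874 to 1134 TPM in the control, nearly all of it Gja1 and Slc1a3. The other astrocyte markers were low, with Slc1a2 at most 11.1 TPM and Aldh1l1 at most 20.4 TPM. Agt and Gjb6 were at 0 in 4 libraries each. Oligodendrocyte markers summed to 212 to 239 and 94.9 to 328 TPM, most of it Cnp. Choroid plexus markers summed to 316 to 952 and 540 to 741 TPM, led on average by Folr1. Mural markers summed to 361 to 369 and 215 to 400 TPM, nearly all of it Acta2. The choroid plexus marker Ttr varied widely between libraries, at 290, 520 and 0.251 TPM in the cKO and 5.29, 147 and 148 TPM in the control. Folr1 did not follow it, at 421, 375 and 297 TPM in the cKO and 515, 412 and 558 TPM in the control. Astrocytes, oligodendrocytes and neurons are also known to express Ckb, and neurons Ak5. The part of such cells in the values below was not tested, and in sorted bulk samples fewer cells of a type and less RNA per cell cannot be told apart.

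Ckb was by far the most abundant of the 9 genes. It stood at 2009, 2160 and 1945 TPM in the cKO libraries, against 1899, 2101 and 2246 TPM in the controls. The groups overlapped, and the highest library was only a little above the lowest. By mean TPM Ckb was number 40 of all genes, and its place ran from 36 to 53 over the 6 libraries. Ckb lies on the minus strand of chromosome 12, from 111669361 to 111672338 (GRCm38, GENCODE M21). It was also the steadiest of the 9, with a coefficient of variation of 6.45% over the 6 libraries. The median over the 88 genes with a mean TPM within 2-fold of it was 11.3%, and 9.09% of those genes varied less.

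The bases before the start of the most abundant member, of the leading ciliary member Ak8 and of the cytosolic Ak1 are shown to let the start regions of genes at very different levels be compared. The sequences are from RefSeq on GRCm38.p6 and give the 250 bases before an annotated start, 5′ to 3′ on the strand of the gene; 8 of the 9 members had an entry (Ak5 had none). Capitals mark matches on either strand to TATAAA and CCAAT, common core promoter boxes, and to GTTGCC, the repeat within RFX factor sites, which are frequent at genes of motile cilia. The motifs were chosen after these sequences had been seen.
Ckb, chr12:111672339-111672588, minus strand: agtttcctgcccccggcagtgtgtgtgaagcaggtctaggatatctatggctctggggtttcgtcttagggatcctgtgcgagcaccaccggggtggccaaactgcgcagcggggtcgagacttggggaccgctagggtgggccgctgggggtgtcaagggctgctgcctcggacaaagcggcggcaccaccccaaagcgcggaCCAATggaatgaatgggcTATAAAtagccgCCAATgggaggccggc
Ak8, chr2:28699911-28700160, plus strand: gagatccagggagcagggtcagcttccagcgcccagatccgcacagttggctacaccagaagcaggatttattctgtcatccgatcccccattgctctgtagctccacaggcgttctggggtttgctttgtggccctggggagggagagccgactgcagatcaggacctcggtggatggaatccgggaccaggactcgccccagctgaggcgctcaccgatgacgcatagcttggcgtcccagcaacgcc
Ak1, most downstream of 4 annotated starts, chr2:32629250-32629499, plus strand: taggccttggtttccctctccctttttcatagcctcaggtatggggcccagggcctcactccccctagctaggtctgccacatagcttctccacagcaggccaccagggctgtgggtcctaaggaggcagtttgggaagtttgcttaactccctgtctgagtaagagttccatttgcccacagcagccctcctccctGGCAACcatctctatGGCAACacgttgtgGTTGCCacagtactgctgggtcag

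The Ckb window held TATAAA beginning 28 bases before the start and CCAAT 46 and 16 bases before it. The Ak1 window held GTTGCC or its complement GGCAAC at 53, 38 and 24 bases before the start, and the most upstream Ak1 start had such a match at 198 and 49 bases. Starts 2 and 3 of Ak1, counted from upstream, had no such match. The Ak1 window shown is thus the one with the most. Start 2 had TATAAA beginning 21 bases after it, and start 3 had no match to the motifs searched. Which of the 4 starts was used cannot be read from values per gene. The windows of Ak3, Ak6, Ak7 and Ak8 held no match to the motifs searched. At Ak9 the full palindromic RFX site, the X-box, lay across the RefSeq start, and capitals mark it in these 30 bases.
Ak9, chr10:41303915-41303944, plus strand: gcccacagGTTTCCAAGGCAACcgcctaac

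Over 32851 windows of 300 bases, from 250 before to 50 after an annotated start, 13.6% held TATAAA, 37.4% CCAAT, 12.5% GTTGCC and 1.29% the X-box, counting both strands. The X-box at Ak9 includes a GTTGCC match on the other strand. The windows of Ak4 starts 1, 2 and 3 held only a CCAAT match far upstream, and that of Ak4 start 4 held no match. Ak9 also held TATAAA on the other strand 117 bases before its start. A match describes letters and not binding, and a window without one says only that these letters are not in it.

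**Figure D1:**
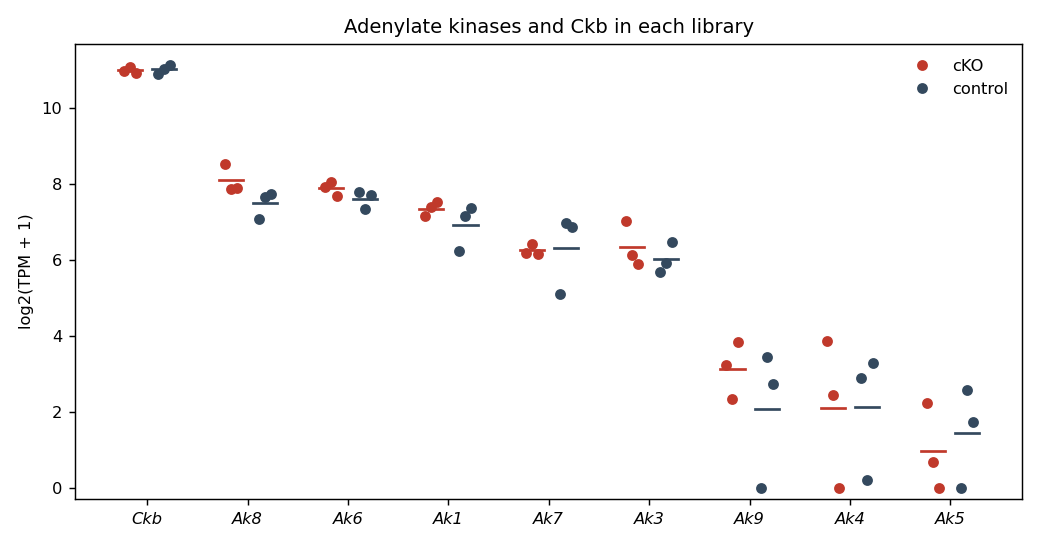
Level of the 9 genes in each library as log2(TPM + 1), ordered by mean TPM, with cKO libraries (red) left of control libraries (dark) and short lines at the group means of 3. Ckb lies between 1899 and 2246 TPM in all 6 libraries, and Ak9, Ak4 and Ak5 have libraries at 0.

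Among the adenylate kinases Ak8 and Ak6 led, followed by Ak1, then Ak7 and Ak3, with Ak9, Ak4 and Ak5 far below. Over the 6 libraries Ckb averaged 2060 ± 133 TPM, Ak8 231 ± 77.5, Ak6 217 ± 35.4, Ak1 145 ± 38.0, Ak7 83.4 ± 33.3 and Ak3 75.7 ± 28.8 TPM (SD, n = 6). Ak9 averaged 6.88 ± 4.69, Ak4 5.53 ± 5.19 and Ak5 1.92 ± 2.09 TPM. Ckb was above Ak8 in 6 of 6 libraries, by 5.44 to 14.3 times. Ak8 and Ak6 did not differ beyond their spread, since Ak8 was the higher in 4 of 6 libraries. Ak6 was above Ak1, and Ak1 above Ak7, in 6 of 6 libraries, although the ranges over libraries overlapped in both pairs. Ak7 and Ak3 did not differ beyond their spread either (Ak7 higher in 4 of 6). A wide step followed, with Ak3 above Ak9 in every library and no overlap of their ranges (50.4 TPM at the lowest for Ak3 and 13.3 TPM at the highest for Ak9). The order of Ak9, Ak4 and Ak5 changed from library to library.

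**Figure D2:**
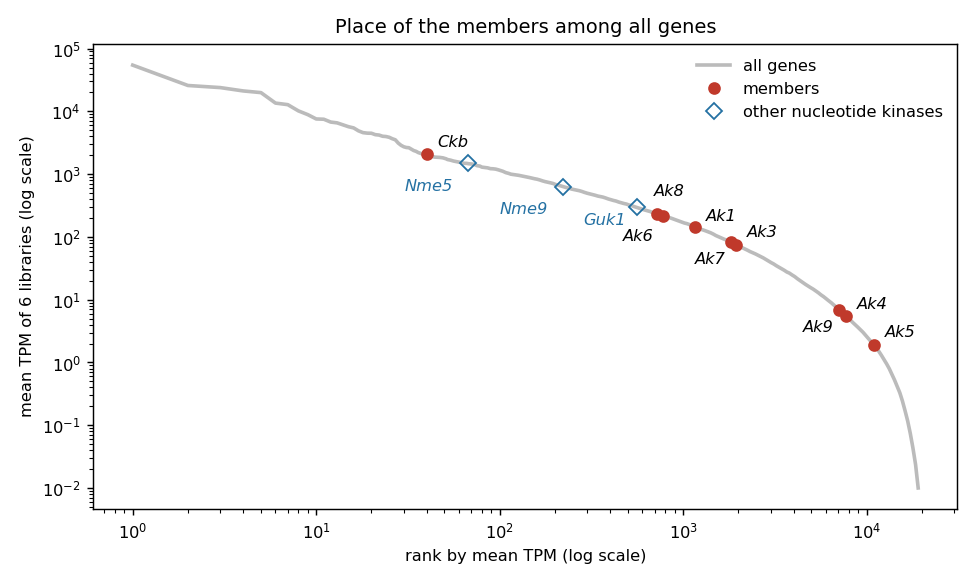
Mean TPM of the 6 libraries against rank among all genes, both on log scales, with the 9 genes as red points and 3 other nucleotide kinases as blue diamonds. Ckb is number 40, Ak8 722 and Ak6 774, and Ak5 is number 10903.

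Ckb made up 67.2, 72.3 and 71.8% of the summed TPM of the 9 genes in the cKO libraries, against 78.6, 74.9 and 73.5% in the controls. Every cKO library was below every control, although Ckb itself overlapped between the groups. For single genes, the counts scaled to library size did not overlap between the groups for 9.62% of those tested, and for 4.62% the cKO was below. These are rates for single genes and not for a share of summed TPM. The share itself was not tested. The other side of this share is the sum of the 8 adenylate kinases, which was 979, 827 and 763 TPM in the cKO and 516, 703 and 809 TPM in the control. Control 1 had the lowest sum and cKO 1 the highest, and the groups overlapped. Ak7, Ak8 and Ak9 made up 42.2 ± 3.46% of the adenylate kinase sum for the cKO, against 40.5 ± 7.69% for the control (SD over 3 libraries each).

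The genotypes were compared gene by gene with edgeR's quasi-likelihood test over 11574 genes. Of the 9 members 0 passed a Benjamini-Hochberg adjusted p of 0.05, where 0% of all genes did. The edgeR adjusted p was 0.99999 for each of the 9. Under an unadjusted threshold of 0.05 lay 1 of 9 members, Ak8, which was higher in the cKO, where 2.75% of all genes (318) lay in either direction and 1.43% were higher. Ak8 was also the 1 member whose cKO libraries all lay on one side of the controls in CPM (estimated counts scaled to library size by TMM), where 9.62% of all genes had groups that did not overlap (4.99% with the cKO above and 4.62% with it below). In the cKO 6 of the 9 were higher and 3 lower, at a median log2 difference of 0.24, against 0.0044 over all genes tested. DESeq2 called 0 of the 9 where it called 1.19% of 11325 genes, and limma-voom called 0 genes, although 5.25% had an unadjusted p under 0.05.

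**Figure D3:**
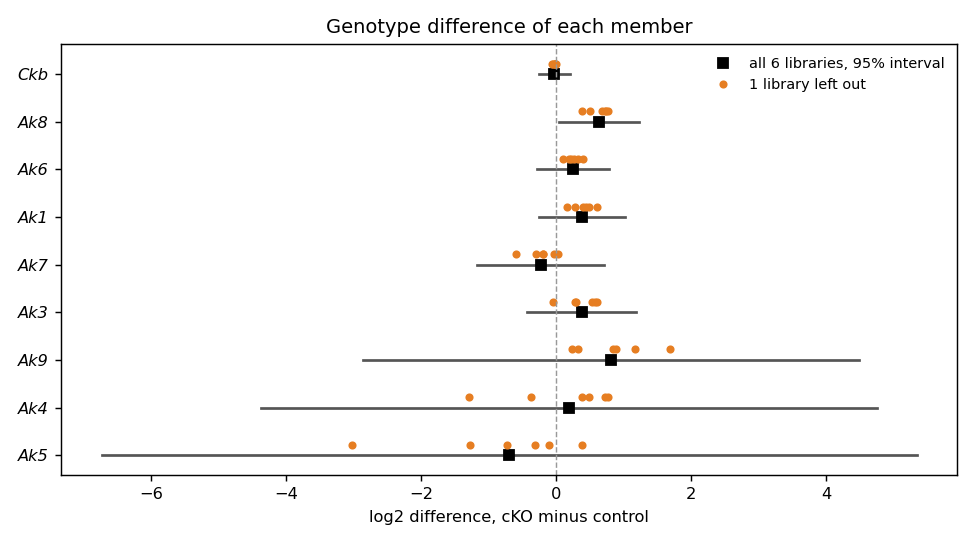
Log2 difference, cKO minus control, of each gene by edgeR with its 95% interval (black), and the same difference with each library left out in turn (orange). The interval of Ckb runs from -0.26 to 0.20, that of Ak8 from 0.043 to 1.22, and those of Ak9, Ak4 and Ak5 span several log2 units.

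Ak8, an adenylate kinase of motile cilia, had 369, 233 and 236 TPM in the cKO libraries, against 133, 201 and 214 TPM in the controls. All 3 cKO libraries were above all 3 controls, with cKO 1 far above the rest and control 1 far below. Its CPM averaged 328 ± 94.4 for the cKO, against 212 ± 36.7 for the control (SD over 3 libraries each). The log2 difference was 0.63 ± 0.25 (SE) with an unadjusted edgeR p of 0.0386 and an adjusted one of 0.99999. The exact two-sided permutation p was 0.1, the smallest that 3 against 3 allows, and the DESeq2 adjusted p was 0.413. The difference was 0.37 without cKO 1, 0.50 without control 1 and 0.67 without control 2, each with an unadjusted p over 0.05, so the unadjusted call was lost in 3 of 6 fits that left out a library. It was also lost with the replicate number as a block (0.60) and in 2 of the other settings. The difference stayed above 0 whichever library was left out. Ak8 (ENSMUSG00000026807.8) lies on chromosome 2 from 28700164 to 28813165.

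Ak7, which carries an adenylate kinase domain and is also needed for ciliary beating, had 71.3, 85.3 and 70.3 TPM in the cKO libraries, against 33.4, 124 and 117 TPM in the controls. The cKO libraries were close together and lay between control 1 and the other two controls. The log2 difference was -0.23 ± 0.41 (SE). It moved with single controls, being -0.60 without control 1, 0.024 without control 2 and -0.030 without control 3. For the fit without control 1 the unadjusted edgeR p was 0.0127 and the adjusted one 0.99975. Within single libraries Ak8 exceeded Ak7 by 5.18, 2.73 and 3.35 times in the cKO and by 3.98, 1.62 and 1.83 times in the control. Ak7 lies on chromosome 12 from 105705976 to 105782447.

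Ak9 had 8.41, 4.04 and 13.3 TPM in the cKO libraries, against 0, 9.90 and 5.62 TPM in the controls. These were 536, 242 and 853 estimated counts in the cKO, against 0, 594 and 388 for the control, so the 0 of control 1 stood beside at least 242 counts in every other library. The log2 difference of 0.81 had a 95% interval from -2.86 to 4.48, and it was 0.23 without control 1. Such gaps were common at this level, since of 1981 genes averaging 400 to 800 counts 11.3% were at or under 3 counts in some library. Its estimated counts were not whole (off by over 0.01) in 5 libraries, all those with a count, so that reads may be split with another gene and its level is uncertain to that extent. Ak9 lies on chromosome 10 from 41303980 to 41434534.

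Control 1 was the lowest of the 6 libraries for 5 of the 6 abundant members. Relative to the mean of the 6 libraries it stood at 0.401 for Ak7, 0.513 for Ak1, 0.576 for Ak8, 0.666 for Ak3 and 0.922 for Ckb, while Ak6 stood at 1.01. The summed level of 22 motile axoneme genes was 3357 TPM in control 1, against 3786 to 4482 TPM in the other five libraries, which is 0.828 of its mean. Of those 22 genes 0 passed the adjusted edgeR test. An unadjusted edgeR p under 0.05 was found for 2, Cfap44 and Ccdc39, both higher in the cKO. Of all genes 2.75% had one in either direction and 1.43% were higher. In CPM 3 of the 22 had all cKO libraries above all controls and 0 had them below, where 4.99% and 4.62% of all genes did. In the cKO 11 of the 22 were higher and 11 lower (median log2 difference -0.012). Rsph1, a radial spoke gene and the most abundant of them, stood at 989, 1200 and 765 TPM in the cKO and 510, 1102 and 1213 TPM in the control, also lowest in control 1, whereas Rsph9 (944 ± 51.1 and 854 ± 46.0 TPM) and the tektin gene Tekt1 (602 ± 78.5 and 659 ± 59.3 TPM) were near their means there, at 887 and 649 TPM. The summed ependymal markers went the other way, being highest in control 1, at 27995 TPM, against 23086 to 24375 TPM in the other libraries. Single markers differed in this. Rarres2, Tmem212, Dynlrb2, Pifo and Mia were highest in control 1, while Ccdc153 and Tppp3 were neither highest nor lowest there. Foxj1 was lowest in control 1, at 3.26 TPM, against a mean of 13.9 TPM over the 6 libraries. Control 1 had the fewest genes with any count, 12460, against 13024 to 14530 in the other five. The part of this library in the differences was not tested beyond the values without it.

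**Figure D4:**
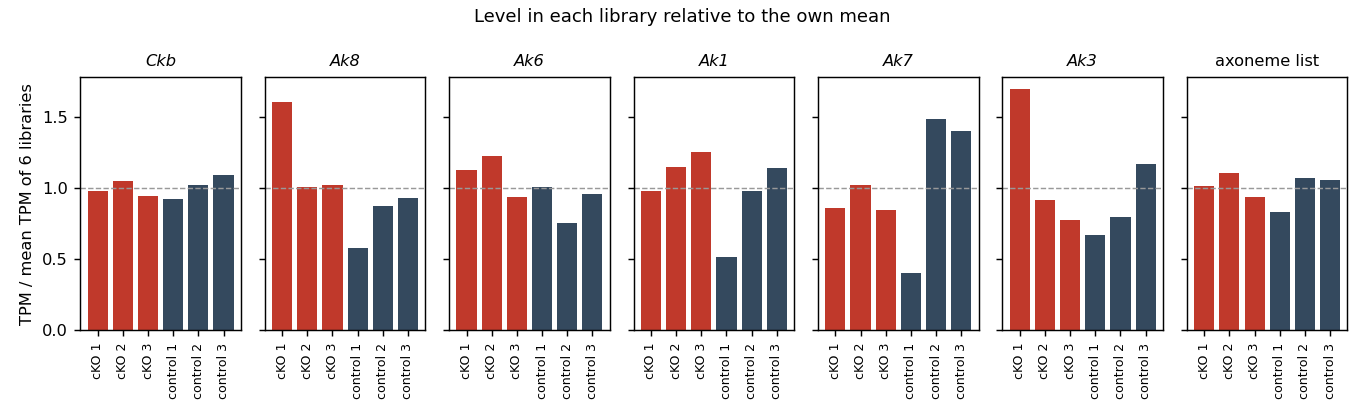
TPM of each abundant member, and of the summed motile axoneme list, in each library divided by its mean over the 6 libraries, with cKO libraries (red) left of control libraries (dark). Control 1 is at 0.401 for Ak7 and 0.576 for Ak8, and cKO 1 is at 1.60 for Ak8 and 1.69 for Ak3.

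Ak1, the main cytosolic adenylate kinase, had 141, 166 and 182 TPM in the cKO libraries, against 74.3, 141 and 165 TPM in the controls. The groups overlapped, and control 1 alone was well below the others. The log2 difference was 0.38 ± 0.27 (SE) and 0.16 without control 1. Ak1 lies on chromosome 2 from 32621758 to 32635058, with 6 annotated transcripts. Ak5, a cytosolic form known from neurons, had 142, 21 and 0 estimated counts for the cKO, against 0, 180 and 95 for the control. It was listed at 0 in 1 library of each genotype, and its log2 difference of -0.69 had a 95% interval from -6.73 to 5.34. It became 0.38 without control 2.

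Ak3, the mitochondrial enzyme that regenerates ADP from AMP with GTP, had 128, 69.1 and 58.4 TPM in the cKO libraries, against 50.4, 59.9 and 88.2 TPM in the controls. One library, cKO 1, stood well above the rest, and the groups overlapped. The log2 difference of 0.38 ± 0.35 (SE) was -0.046 without that library. Ak3 lies on chromosome 19 from 29020833 to 29047961, where an antisense gene of at most 4.399 TPM and the opposite-strand gene Cdc37l1 (8.03, 34.6 and 42.9 TPM in the cKO, 24.2, 18.2 and 12.2 TPM in the control) overlap it. The estimated counts of Ak3 were not whole in 3 libraries, so its level may also include reads split with another gene. Whether the libraries kept strand is not given in the sources used here. Ak4, a related matrix protein, had 662, 202 and 0 estimated counts for the cKO, against 378, 7 and 464 for the control. Each genotype had a library near or at 0, and the log2 difference of 0.19 had an interval from -4.37 to 4.75.

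Ak6, a nuclear adenylate kinase, had 243, 265 and 203 TPM in the cKO libraries, against 218, 162 and 208 TPM in the controls. The groups overlapped, and the log2 difference was 0.24 ± 0.23 (SE). Ak6 lies on chromosome 13 from 100650979 to 100666359 and encloses Taf9, a transcription factor subunit gene, on the same strand. The estimated counts of Ak6 were not whole (off by over 0.01) in 6 of 6 libraries. Sums over the transcripts of a gene stop being whole where a quantifier splits reads between genes. Taf9 was listed at 24.1, 11.9 and 18.6 TPM in the cKO and at 99.0, 64.0 and 0.081 TPM in the control. Ak6 thus took 91.0, 95.7 and 91.6% of the summed TPM of both genes in the cKO, and 68.8, 71.7 and 99.96% in the control. With the counts of both genes summed, an alternative chosen after the values had been seen, the log2 difference was -0.0088. The values of Ak6 and Taf9 apart are therefore uncertain.

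**Figure D5:**
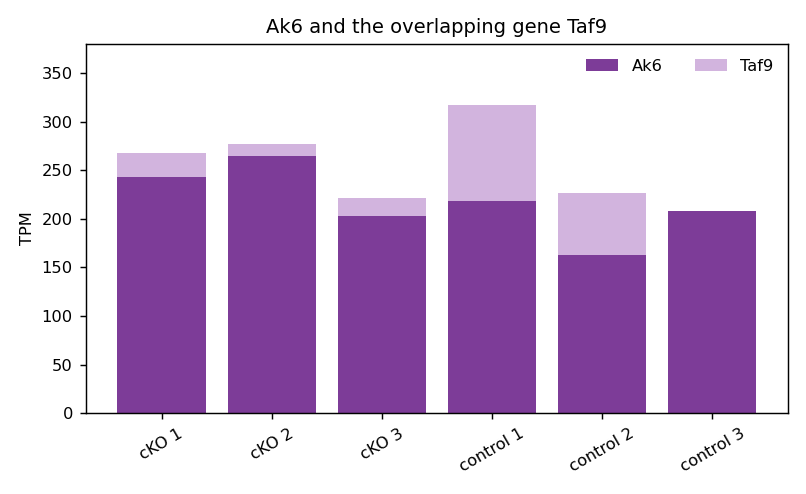
TPM of Ak6 (dark) and of the overlapping gene Taf9 (light), stacked, in each library, cKO libraries left of control libraries. Taf9 is highest in control 1 and control 2, at 99.0 and 64.0 TPM, and is at 0.081 TPM in control 3.

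Ckb itself averaged 2219.9 ± 49.5 CPM for the cKO, against 2268 ± 87.4 CPM for the control (SD over 3 libraries each). The log2 difference was -0.031 ± 0.10 (SE), and the 95% interval of the cKO level ran from 0.834 to 1.15 of the control level. Of the other creatine kinases, the muscle gene Ckm and the mitochondrial Ckmt2 were listed at 0 in all 6 libraries, and the mitochondrial Ckmt1 at 8.67 TPM in cKO 1 and 0 in the others. The genes of creatine synthesis, Gatm and Gamt, and of its uptake, Slc6a8, were low and uneven. Gamt stood at 0, 18.1 and 0 TPM in the cKO and 0, 4.99 and 11.8 TPM in the control, and Slc6a8 at 8.48, 2.65 and 10.7 against 5.25, 0.045 and 0.597 TPM. Gatm was at most 0.713 TPM in the cKO and reached 19.6 TPM in control 3. edgeR called 0 of these 3 genes, and 0 at an unadjusted p of 0.05, where it called 0% and 2.75% of all genes.

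Whether the transcripts counted for a gene kept the same length was read from the ratio of estimated counts to TPM, which follows the mean effective length of the transcripts. After each library's own scale was removed, this ratio varied over the libraries by 0.12 to 0.41% of its median for 8 of the 9 members (in the 2 to 6 libraries with at least 100 counts of the gene) and by 2.61% for Ak6, where 0.595% was the median over 5331 genes.

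Enzymes that act beside the adenylate kinases were in part far more abundant. Among 13 nucleoside mono- and diphosphate kinases, Nme5, a radial spoke protein, stood at 1565, 1460 and 1409 TPM in the cKO and 1801, 1247 and 1409 TPM in the control. It was 4.23 to 6.27 times Ak8 in the cKO libraries and 6.22 to 13.5 times in the controls. Nme9, a thioredoxin and nucleoside diphosphate kinase gene, stood at 712 ± 121 and 553 ± 48.5 TPM, and the guanylate kinase gene Guk1 at 283 ± 54.5 and 308 ± 46.3 TPM (SD, n = 3 each). Of the 13 genes 0 passed the adjusted edgeR test, 4 were higher and 9 lower, with a median log2 difference of -0.18. Under an unadjusted edgeR p of 0.05 lay 1 of the 13, where 2.75% of all genes did. It was the UMP-CMP kinase gene Cmpk1, named after its values were seen. Cmpk1 stood at 2.77, 7.75 and 11.6 TPM in the cKO and 25.2, 18.7 and 19.6 TPM in the control. In CPM the groups did not overlap for 3 of the 13, where they did not for 9.62% of all genes. The cKO was above for Nme9 and below for Cmpk1 and Nme7.

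Of the 9 tested genes of AMP turnover 7 were higher in the cKO and 2 lower (median log2 difference 0.50). Of all 11574 genes tested 5823 were higher and 5751 lower (median 0.0044). Past the adjusted or the unadjusted edgeR threshold were 0 of the 9, where 0% and 2.75% of all genes were. The leading members were the nucleotidase gene Nt5c at 324, 331 and 350 TPM in the cKO and 333, 217 and 179 TPM in the control, Aprt, which salvages adenine to AMP, at 142 ± 45.1 and 99.9 ± 38.3 TPM, and the adenosine kinase gene Adk at 121 ± 19.1 and 84.6 ± 27.2 TPM. Of 6 tested genes of the AMP-activated protein kinase and its activator, 3 were higher and 3 lower (median -0.018) and 0 passed. Prkag1, the subunit that binds AMP, stood at 88.8, 135 and 118 TPM in the cKO and 174, 150 and 165 TPM in the control. All its cKO libraries lay below the controls, as they did in CPM for 4.62% of all genes. Its log2 difference was -0.53 ± 0.24 (SE), with an unadjusted edgeR p of 0.0586. Stk11, the upstream kinase LKB1, stood at 40.3 ± 8.69 and 32.4 ± 17.9 TPM, and the subunit gene Prkab1 at 6.12, 6.92 and 28.9 TPM in the cKO and 3.84, 0.579 and 33.2 TPM in the control. Of 5 tested genes of mitochondrial nucleotide exchange 3 were higher and 2 lower (median 0.10), and 0 passed. In CPM 1 of the 5, Slc25a5, had all cKO libraries above all controls, where 4.99% of all genes did. The adenine nucleotide carrier genes Slc25a5 and Slc25a4 stood at 1513 ± 69.4 and 481 ± 36.4 TPM in the cKO and at 1413 ± 169 and 475 ± 113 TPM in the control, and the outer membrane channel gene Vdac3 at 628 ± 61.1 and 537 ± 42.4 TPM.

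The genes whose log2 CPM followed a member most closely over the 6 libraries were sought among the 3480 genes that averaged 50 CPM or more. For Ckb they were Dynlrb1 (Pearson r = 0.975), a dynein light chain gene, Mpv17 (0.968) and Msantd4 (0.965). For Ak8 they were Ndufs1 (0.978), a subunit of respiratory complex I, Krcc1 (0.975) and Pfdn2 (0.958), a prefoldin subunit. These are descriptions over 6 libraries that share their depth and sorting, with no test. Among the 15 pairs of the 6 abundant members the closest was Ak3 and Ak8 (r = 0.831), both highest in cKO 1, and Ak8 and Ak7 stood at r = 0.276.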

How the data were processed

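RNA-seq of 3 cKO and 3 control samples was used, grouped by sample title. CASAVA 1.8, cutadapt 1.11 and kallisto 0.42.5 were used, per the submitters' processing notes; the build, the annotation and the summing of transcripts to genes are not stated in any source used here. Each deposited file lists 47643 genes with an estimated count and a TPM value, per the file headers. Estimated counts were rounded to whole numbers, filtered by filterByExpr (11574 genes), normalized with TMM factors and compared by edgeR 4.0.16 in R 4.3.3 (robust quasi-likelihood, genotype as the only term), with Benjamini-Hochberg adjustment over all genes at 0.05. TPM served for levels between genes. Of the gene identifiers 99.1% matched GENCODE M21 (GRCm38), the source of coordinates. limma 3.58.1 and DESeq2 1.42.0 were alternatives, with other scalings, filters, TPM pseudocounts of 1 and 0.1, a replicate block, and fits without each library in turn. The edgeR, DESeq2 and limma-voom tests were checked on simulated counts.

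Members and lists were chosen with earlier results of these data known. Named genes are the 9 members, Ccn1, the 3 most abundant of each pathway list, the most abundant of each marker list and the 3 closest genes to Ckb and to the leading adenylate kinase. Taf9, Cdc37l1, Cmpk1, Nme7, Cfap44, Ccdc39, Ttr, the other less abundant markers and single 0 values were named after they had been seen. The number of counts limits precision, and SDs include technical spread.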

Additional observations from a re-analysis of the deposited data

How the results depend on the processing

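No member passed the adjusted threshold in the edgeR fit, in 10 other settings, or in 6 fits that left out 1 library. DESeq2 called 135 genes over all (80 higher and 55 lower in the cKO), none of them a member; every other setting called 0, and the cause was not tested. Ckb stayed slightly lower and Ak8 and Ak1 higher in the cKO in all 10 settings and 6 left-out fits (Ak8 0.37 to 0.77). Ak4 turned to -1.47 with limma-voom, to -0.033 on log2(TPM + 1) with or without a filter and to -0.42 on log2(TPM + 0.1), and Ak6 to -0.0088 with Taf9 added, with untested causes. Without a change of sign, Ak9 moved from 0.81 to 3.48 with limma-voom, 2.12 on log2(TPM + 0.1) and 1.88 with the replicate block, Ak7 from -0.23 to between -0.069 and -0.048 with limma-voom, the TPM scales and the block, and Ak5 from -0.69 to -2.85 with the block. Fits without 1 library gave ranges across 0 for Ak3 (-0.046 to 0.60), Ak4 (-1.30 to 0.77), Ak5 (-3.02 to 0.38) and Ak7 (-0.60 to 0.024). The share of Ckb in the 9 genes, 73.1% on average in TPM, was 66.7% in CPM, which is not per length. No pairing by replicate number was seen between samples of like number (correlations of deviations from the group means 0.0080, 0.031 and 0.015). Samples of unlike number were not compared, so these values do not settle whether the samples were paired. With the replicate number as a block edgeR called 0 genes and Ak8 stood at 0.60, no longer past the unadjusted threshold. Ak4, Ak5 and Ak9, each with a library at 0, had the widest intervals.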
